A study of Mus musculus with 12 samples.

Results

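Neurotrophins are secreted growth factors that control survival, migration and maturation of neurons, and in the cerebellum they act on granule neuron progenitors and on the neurons these give rise to. Each mature neurotrophin binds a Trk receptor tyrosine kinase, and all of them bind the p75 receptor encoded by Ngfr, a member of the TNF receptor family with an intracellular death domain. Uncleaved precursors, the proneurotrophins, bind p75 together with sortilin or a related sorting receptor. The genes described here are 7 members of that system, taken by symbol from the deposited expression table of 15672 genes, and all 7 were found: Ngfr, the Trk receptor genes Ntrk2 (TrkB) and Ntrk3 (TrkC), the sorting receptor genes Sort1 (sortilin) and Sorcs1, and the ligand genes Bdnf and Ntf3 (neurotrophin-3). They were chosen from earlier results on these libraries, among them the difference between the genotypes, so the values of that contrast are given below as a description with no test.

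The libraries are bulk RNA-seq of mouse tumour tissue labelled MB, taken as medulloblastoma, a tumour of the cerebellum, at end point. YSGr tumours carried a floxed Yap1 allele, the conditional allele of activated Smoothened (fSMO-M2) and hGFAPcre, Cre recombinase under a human GFAP promoter, which is active in neural precursors and astrocytes, and the series' text calls them rescued without saying what was rescued. SG tumours carried fSMO-M2 and hGFAPcre, so that the activated Hedgehog signal transducer and the Cre were common to both genotypes. There were 3 libraries each of YSGr females (numbered 10 to 12), YSGr males (7 to 9), SG females (4 to 6) and SG males (1 to 3), with 8854765 to 9478645 estimated reads per library. The labels give neither ages nor animal numbers. As separate animals are not stated either, the p-values below rest on the spread from library to library, and some of that spread may be technical. Yap1, the targeted gene, had 0.777 to 3.31 CPM (reads scaled to a common library size) in the 6 YSGr libraries and 19.3 to 27.7 CPM in the 6 SG libraries, and the groups did not overlap. Within YSGr it was lower in females (0.777 to 1.25 CPM) than in males (1.45 to 3.31 CPM), also without overlap.

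YSGr male 8 stood apart from the other libraries in its cell type markers: the summed level of 10 oligodendrocyte lineage markers was 9380 CPM there, against 1180 to 2850 CPM in the other 11 libraries. YSGr male 8 was also the highest of the 12 libraries for Ntrk2, Ntrk3, Bdnf, Sort1 and Sorcs1 and the lowest for Ngfr. SG male 2 was the lowest of the 12 for Ntrk3, Sort1 and Sorcs1. YSGr female 11 differed from the other YSGr females in the summed level of 8 Purkinje cell and interneuron markers. That level was 578 CPM in female 11, against 80.6 and 83.2 CPM in females 10 and 12 and 513 to 716 CPM in YSGr males. In bulk tissue fewer cells of a type and less RNA per cell cannot be told apart, which holds for every difference below. The share of all genes without overlap between 2 groups of 3 libraries was not counted. Nothing is therefore read from such separation of single groups below.

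Ngfr lies on chromosome 11 from 95568818 to 95587735 on the minus strand of the mm10 build (GENCODE M21), with 3446 bases of merged exon. Its promoter is shown because Ngfr is the gene of the 7 that differed most between the genotypes and the start of a gene is where factors that work with Yap1 or act in the Hedgehog pathway could be looked for. The sequence is RefSeq's for GRCm38.p6, 300 bases at chr11:95587649-95587948 on the minus strand, running from 250 bases before RefSeq's start site to 50 bases from it. That start site lies inside the gene as GENCODE gives it, so the 2 annotations begin Ngfr at different bases. Capitals mark the letters GGGCGG, the core of the SP1 motif, or their reverse complement.
Ngfr: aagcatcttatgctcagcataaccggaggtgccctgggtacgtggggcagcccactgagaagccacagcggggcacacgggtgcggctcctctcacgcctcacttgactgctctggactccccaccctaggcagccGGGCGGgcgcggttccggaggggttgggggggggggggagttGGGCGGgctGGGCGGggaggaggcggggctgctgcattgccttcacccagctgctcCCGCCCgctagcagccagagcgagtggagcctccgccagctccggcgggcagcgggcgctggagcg
The window was 71.7% G and C, against a median of 52.7% over 32851 RefSeq mouse promoters of the same length. It held GGGCGG on either strand at 4 places, starting 114, 72, 63 and 16 bases before RefSeq's start site. The last of these places lies within the GENCODE gene, and 35.7% of all promoters held it at least at 1 place. Neither CATTCC, the core bound by the TEAD partners of Yap1 and present on either strand in 14.7% of promoters, nor ACCACCCA, the core of the GLI motif of the Hedgehog pathway and present in 1.5%, was among the letters of this window. These searched motifs did not overlap in it. Promoter entries were also matched for Ntrk2, Sorcs1, Bdnf and Ntf3, so that 5 of the 7 genes had one. Bdnf entries held CATTCC on either strand, starting 223 and 77 bases before the start site of the entry and at base 19 from it. The entries of Ntrk2, Sorcs1 and Ntf3 did not hold it.

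Ngfr was lower in YSGr tumours than in SG tumours and lower in males than in females, with no overlap between any 2 of the 4 groups. It had 51.2, 39.9 and 69.7 CPM in YSGr females and 29.0, 22.3 and 35.3 CPM in YSGr males, against 115, 120 and 129 CPM in SG females and 80.0, 80.9 and 76.3 CPM in SG males. The levels ran, low to high, from YSGr males through YSGr females and SG males to SG females, and each step in that order was free of overlap. Of the 14147 genes tested, 0.0707% showed this order without overlap, and all 6 YSGr libraries lay on one side of all 6 SG libraries for 5.9% of genes. The order was read from the Ngfr values themselves, so nothing is read from these shares. Between 210 and 1176 estimated reads per library stood behind these values. The spread was wider in YSGr, with log2 CPM of 5.71 ± 0.40 in females and 4.84 ± 0.33 in males (SD, n = 3 each), against 6.92 ± 0.08 in SG females and 6.31 ± 0.05 in SG males (SD, n = 3 each).

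Over both sexes Ngfr averaged 41.2 CPM in YSGr and 100 CPM in SG, which is 2.43-fold lower in YSGr. The log2 fold change, averaged over the sexes, was -1.34 ± 0.14 (SE), with -1.21 ± 0.20 in females and -1.47 ± 0.20 in males. It stayed between -1.45 and -1.25 when any 1 library was left out, the smallest without YSGr female 11 and the largest without YSGr female 12. The male value was -1.30 without YSGr male 8. Across all genes 11.4% passed the threshold (adjusted p under 0.05, limma with Benjamini-Hochberg adjustment) in the averaged contrast, 3.01% in females and 7.85% in males. Ngfr was the 1 gene of the 7 past it in each of these contrasts. Since the genes were chosen on this contrast, nothing is read from that count. Among the 746 genes past the threshold and lower in YSGr, 123 fell by more than Ngfr.

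**Figure D1:**
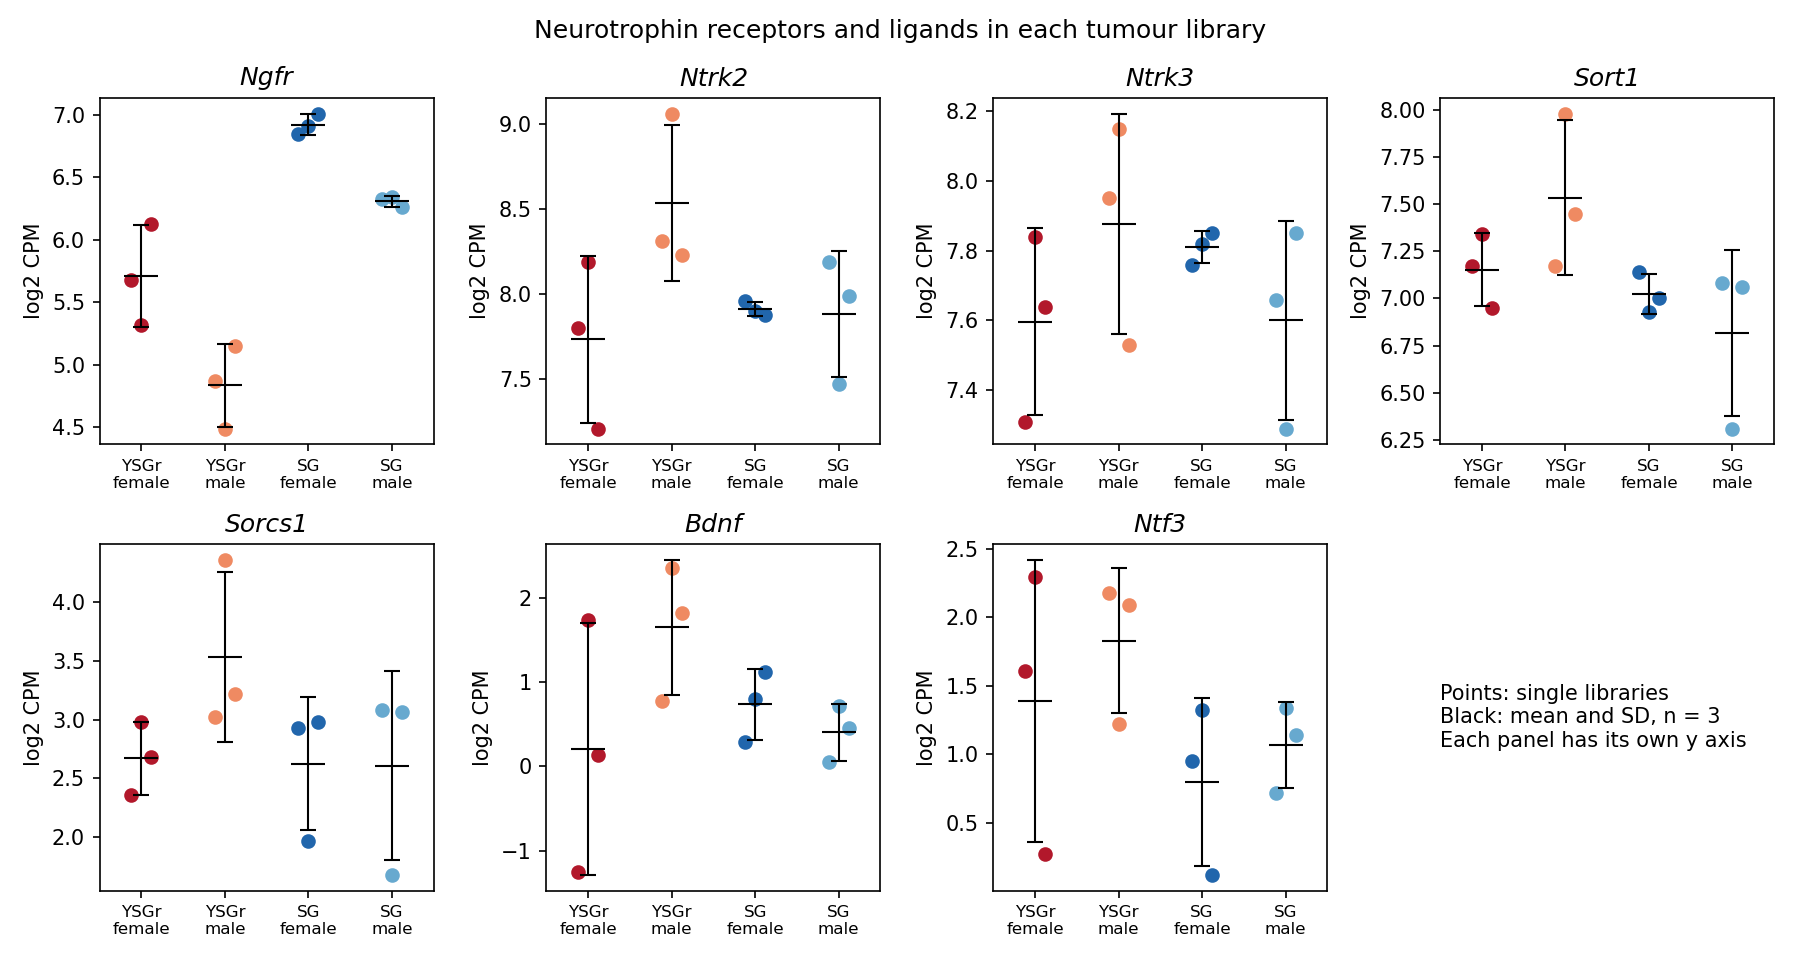
Level of the 7 genes in every library, in log2 CPM on the vertical axis of each panel, by genotype and sex on the horizontal axis; points are single libraries and the black marks are the mean and SD of 3. Ngfr separates all 4 groups, from 22.3 CPM in the lowest YSGr male to 129 CPM in the highest SG female, while the other 6 genes overlap between the genotypes.

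Ntrk2 encodes TrkB, the receptor for brain-derived neurotrophic factor, which is made both as a kinase and, in astrocytes mainly, as a truncated form. The table has 1 value per gene, which takes both forms together. Ntrk2 (chromosome 13, 58806569 to 59133970, plus strand) had 223, 292 and 147 CPM in YSGr females and 318, 535 and 301 CPM in YSGr males, against 249, 239 and 235 CPM in SG females and 293, 178 and 254 CPM in SG males. All 3 YSGr males were above all 3 SG males, and YSGr females lay on both sides of SG females. The log2 fold change was -0.18 ± 0.27 (SE) in females and 0.65 ± 0.27 in males. Without SG male 2 and YSGr male 8 the male value was 0.18. The summed level of 10 astrocyte markers was 1540 to 3070 CPM in YSGr females and 3200 to 3850 CPM in YSGr males, against 2570 to 2640 CPM in SG females and 2080 to 3470 CPM in SG males. In the 3 YSGr females, 3070 CPM of astrocyte markers and 292 CPM of Ntrk2 were in female 11, the highest of the 3 for both, and 1540 and 147 CPM were in female 12, the lowest for both. YSGr male 8, with the most Ntrk2, had 3200 CPM of astrocyte markers, the lowest of the YSGr males. The part of astrocyte content in the Ntrk2 values was not tested.

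Ntrk3 encodes TrkC, the receptor for neurotrophin-3. It (chromosome 7, 78175959 to 78738012, minus strand) had 158, 229 and 200 CPM in YSGr females and 246, 283 and 185 CPM in YSGr males, against 217, 226 and 231 CPM in SG females and 202, 157 and 231 CPM in SG males. These groups overlapped throughout. The log2 fold change was -0.22 ± 0.19 (SE) in females and 0.27 ± 0.19 in males, and 0.03 ± 0.13 averaged over the sexes. Without SG male 2 and YSGr male 8 the male value was -0.02 and the averaged value -0.12, and with library weights the averaged value was -0.18.

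Sort1 encodes sortilin, which joins p75 in a receptor for proneurotrophins and sorts proteins between the Golgi and endosomes. It (chromosome 3, 108284082 to 108361511, plus strand) had 144, 162 and 124 CPM in YSGr females and 144, 253 and 175 CPM in YSGr males, against 141, 122 and 128 CPM in SG females and 135, 79.4 and 133 CPM in SG males. All YSGr males were above all SG males, and the females overlapped. The log2 fold change was 0.13 ± 0.23 (SE) in females and 0.72 ± 0.23 in males, and the male value was 0.24 without SG male 2 and YSGr male 8. Sorcs1, a sortilin relative that sorts receptors in neurons (chromosome 19, 50143299 to 50678646, minus strand), was low, with 4.93, 7.70 and 6.21 CPM in YSGr females and 7.93, 20.4 and 9.10 CPM in YSGr males, against 7.41, 3.71 and 7.66 CPM in SG females and 8.23, 2.99 and 8.21 CPM in SG males. Its male log2 fold change of 0.92 ± 0.44 (SE) was 0.05 without the same 2 libraries. The female value was 0.05 ± 0.44.

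The ligands were near the limit of detection. Bdnf, the TrkB ligand (chromosome 2, 109674700 to 109727007, plus strand), had 2, 30 and 8 estimated reads in YSGr females and 15, 46 and 32 in YSGr males, against 10, 14 and 18 in SG females and 8, 13 and 11 in SG males. In CPM that was 0.210, 3.12 and 0.888 in YSGr females and 1.51, 4.88 and 3.31 in YSGr males, against 1.01, 1.53 and 1.97 in SG females and 0.823, 1.44 and 1.16 in SG males. YSGr males were above SG males without overlap, and the YSGr females spread from the lowest Bdnf level of all 12 libraries to the third highest. Its log2 fold change was -0.53 ± 0.63 (SE) in females and 1.24 ± 0.63 in males. With library weights the female value was -1.68, and it was 0.20 when YSGr female 10 was left out and -1.29 when YSGr female 11 was. Ntf3, the TrkC ligand (chromosome 6, 126101412 to 126166910, minus strand), had 2.83, 4.68 and 0.999 CPM in YSGr females and 4.31, 2.12 and 4.03 CPM in YSGr males, against 1.73, 2.29 and 0.875 CPM in SG females and 1.44, 2.33 and 2.00 CPM in SG males. The groups overlapped, with 4 of the 6 YSGr libraries above every SG library, and the log2 fold change was 0.59 ± 0.49 (SE) in females and 0.76 ± 0.49 in males. Exons of antisense genes cover 14.4% of the Bdnf exon bases, 4.5% of those of Sort1 and 2.5% of those of Sorcs1, and how counting used strand is not given, so reads of the 2 strands cannot be told apart there.

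Levels between genes were compared per kilobase of merged exon. In YSGr the mean level was highest for Sort1 at 22.0 CPM per kilobase, followed by Ntrk2 at 15.7, Ngfr at 12.0, Ntrk3 at 7.18, Ntf3 at 1.85, Sorcs1 at 1.11 and Bdnf at 0.373 CPM per kilobase. In SG it was highest for Ngfr at 29.1, followed by Sort1 at 16.3, Ntrk2 at 12.5, Ntrk3 at 6.98, Ntf3 at 1.04, Sorcs1 at 0.754 and Bdnf at 0.213 CPM per kilobase. Ngfr was above Sort1 in 1 of 6 YSGr libraries and in 6 of 6 SG libraries, and above Ntrk2 in 2 of 6 YSGr libraries and in 6 of 6 SG libraries. The single-library ranges in YSGr overlapped for the neighbours Sort1 (16.3 to 33.4), Ntrk2 (7.64 to 27.7) and Ngfr (6.46 to 20.2 CPM per kilobase), while in SG Ngfr (22.1 to 37.3) did not overlap with Sort1 (10.5 to 18.6). Merged exons include those of rarely used transcripts, which are long for Ntrk2 and Ntrk3, so levels per kilobase of these genes are lower limits for the transcripts in use.

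The balance of p75 to TrkB transcripts was also compared. The ratio of Ngfr to Ntrk2 CPM was 0.229, 0.136 and 0.473 in YSGr females and 0.0913, 0.0416 and 0.117 in YSGr males, against 0.464, 0.503 and 0.546 in SG females and 0.273, 0.456 and 0.300 in SG males. All YSGr males were below every other library, and YSGr female 12 lay among the SG females. Over the 12 libraries Ngfr and Ntrk2 had a Pearson's r of -0.63, and deviations from the 4 group means had r of -0.86. Sort1 and Sorcs1 had r of 0.89, Ntrk2 and Sort1 0.83, and Ngfr and Sort1 -0.68. These correlations describe 12 libraries that share their tissue source and their scaling.

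**Figure D2:**
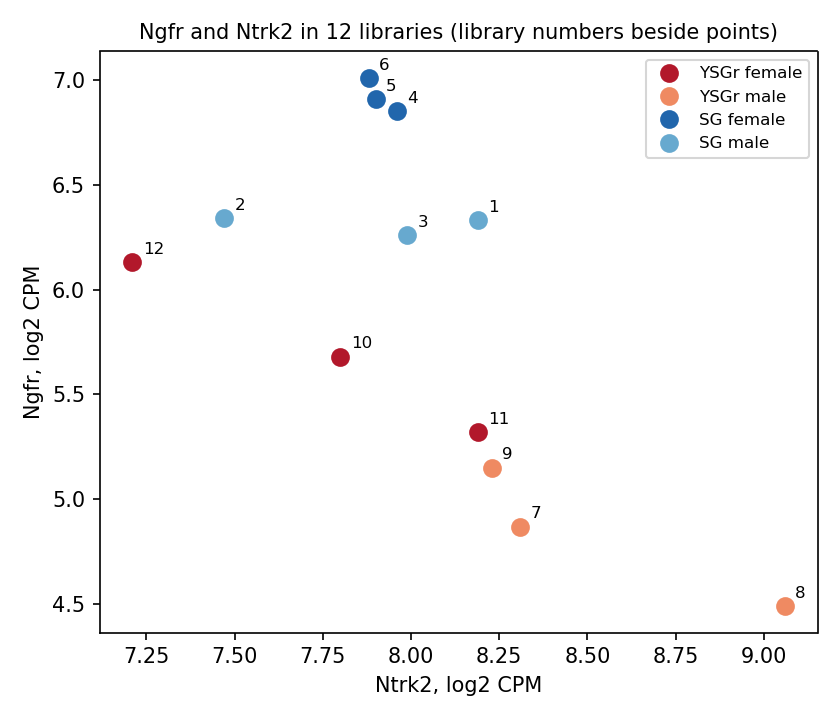
Ngfr against Ntrk2, each in log2 CPM, with 1 point per library, coloured by genotype and sex and labelled with the library number. The 6 YSGr libraries run from female 12 (high Ngfr, low Ntrk2) to male 8 (low Ngfr, high Ntrk2), and the SG females and SG males sit above them at comparable Ntrk2.

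The series asks how Yap1 function differs between the sexes, so the female and male effects were set against each other. Remaining Yap1 was itself lower in YSGr females than in YSGr males, at -1.18 ± 0.29 (SE, limma adjusted p = 0.142) in log2. Its part in the differences below was not tested. None of the 7 genes passed the threshold for the female minus male difference of the YSGr effects (limma, adjusted p under 0.05, passed by 0.00707% of all genes), and 1 of the 7, Ntrk2, had an unadjusted p under 0.05. So had 1634 of all 14147 genes tested. For Ngfr the difference was 0.26 ± 0.28 (SE, limma adjusted p = 0.678). It was -0.83 ± 0.38 for Ntrk2 (adjusted p = 0.429) and -1.77 ± 0.89 for Bdnf (adjusted p = 0.439). Except for Ngfr, all of these differences were below 0, with -0.49 for Ntrk3, -0.58 for Sort1, -0.87 for Sorcs1 and -0.17 for Ntf3. Without SG male 2 and YSGr male 8 they were -0.36 for Ntrk2, -1.58 for Bdnf, -0.20 for Ntrk3, -0.11 for Sort1, 0.01 for Sorcs1 and -0.61 for Ntf3. That of Ntf3 was 0.39 without YSGr female 12. With library weights that of Bdnf was -2.78 and passed the threshold (limma adjusted p = 0.029). With those weights 675 genes passed, against 1 without them.

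Females had more Ngfr than males in both genotypes. The mean was 53.6 CPM in YSGr females and 28.8 CPM in YSGr males, 1.86-fold higher in females, and 121 CPM in SG females and 79.1 CPM in SG males, 1.53-fold higher in females. The log2 fold change of females over males was 0.88 ± 0.20 (SE, limma adjusted p = 0.142) in YSGr and 0.62 ± 0.20 (adjusted p = 0.982) in SG. Neither passed the threshold over all genes, which 0.0778% of genes passed in YSGr and 0.0353% in SG. All females were above all males within both genotypes for 0.509% of genes. Averaged over the genotypes, a contrast added after these values were seen, the difference was 0.75 ± 0.14 (SE, limma adjusted p = 0.186), higher in 6 of 6 females than in the males of their genotype, and 0.0636% of genes passed. Without YSGr female 11, when 1026 genes passed in YSGr and 307 averaged over the genotypes, the adjusted p was 0.00698 in YSGr and 0.00629 averaged. Over all alternatives it ranged between 0.0022 and 0.508 in YSGr and between 0.000416 and 0.636 averaged, so that the call depends on the libraries kept and on their weights.

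No other gene of the 7 passed in a sex contrast, and counts at an unadjusted p under 0.05 in limma were 3 of 7 in YSGr (Ngfr, Ntrk2 and Bdnf), 1 of 7 in SG and 1 of 7 averaged, Ngfr in both. Over all 14147 genes tested, such counts were 2566 in YSGr, 259 in SG and 1233 averaged. Ntrk2 was lower in YSGr females than in YSGr males without overlap, at -0.80 ± 0.27 (SE, adjusted p = 0.17), and so was Sorcs1, at -0.86 ± 0.44 (adjusted p = 0.312). Without YSGr male 8 these were -0.54 for Ntrk2 and -0.44 for Sorcs1. Bdnf differed by -1.44 ± 0.63 (adjusted p = 0.253) between YSGr females and males. Without YSGr female 11, the YSGr female with the most Ntrk2 and Bdnf, 1026 genes passed in YSGr. The adjusted p of Ntrk2 was then 0.0408 and that of Bdnf 0.0297. Over all alternatives these ranged between 0.0232 and 0.563 for Ntrk2 and between 0.0141 and 0.656 for Bdnf. In SG the female minus male difference was 0.03 ± 0.27 for Ntrk2 (adjusted p = 0.992) and 0.33 ± 0.63 for Bdnf (adjusted p = 0.982).

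**Figure D3:**
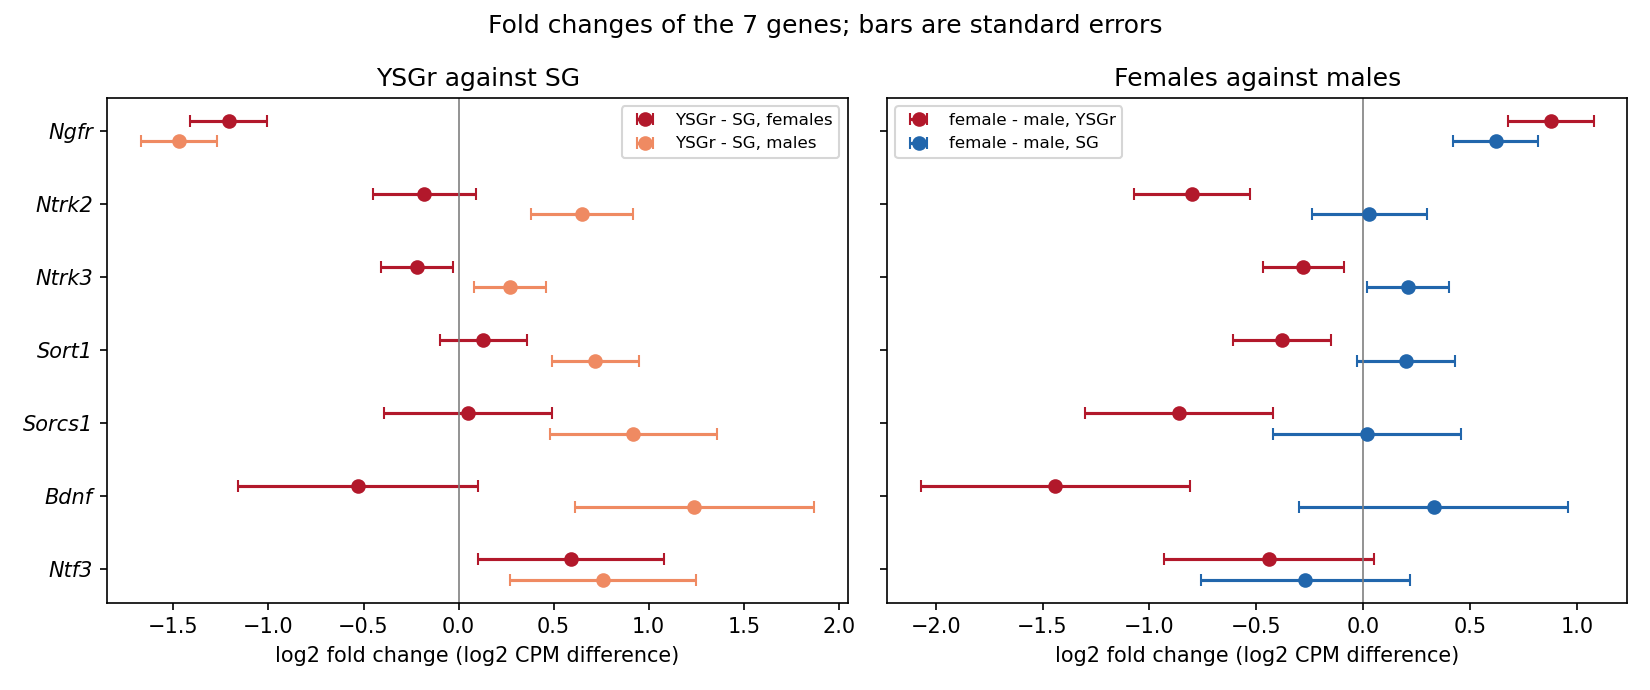
Log2 fold changes of the 7 genes with standard errors as bars, for YSGr against SG in females and in males (left) and for females against males in YSGr and in SG (right). Ngfr is on the low side in both sexes, at -1.21 and -1.47, and on the female side in both genotypes, at 0.88 and 0.62.

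The other ligands and receptors of the system were described from lists that hold none of the 7 genes. All lists here and below were also chosen with earlier results of these data known. Their counts and p-values are therefore a description, and no enrichment is read from them. Over all genes, 6.16% were higher and 5.27% lower in YSGr in the averaged contrast. Of 4 other neurotrophin receptors tested, 2 fell and 0 rose, with a median log2 fold change of -0.26, against 0.00 over all genes. The 2 that did not pass had log2 fold changes above 0, at 0.59 (limma adjusted p = 0.262) and 0.27 (0.43). Nradd, a relative of p75 with a death domain, fell by 0.99 on the log2 scale (SE 0.18, limma adjusted p = 0.00389). Nradd had 3.99, 4.27 and 3.88 CPM in YSGr females and 3.11, 3.29 and 4.65 CPM in YSGr males, against 6.09, 8.95 and 7.88 CPM in SG females and 6.28, 10.5 and 8.00 CPM in SG males, with no overlap between the genotypes. Sorcs2, a sorting receptor that joins p75 in binding proneurotrophins, fell by 0.79 (SE 0.14, adjusted p = 0.00385). Sorcs2 had 34.1, 29.6 and 37.5 CPM in YSGr females and 38.8, 65.9 and 36.3 CPM in YSGr males, against 80.9, 77.9 and 77.3 CPM in SG females and 54.4, 53.8 and 65.9 CPM in SG males. Only YSGr male 8 was as high as SG libraries. The Sorcs2 log2 fold change was -1.22 in females (adjusted p = 0.0071) and -0.35 in males (adjusted p = 0.256). The calls of Nradd and Sorcs2 held under all 19 alternatives.

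Of 17 co-receptors and binding partners of p75, 1 fell and 0 rose (median -0.03), the 1 being Prex1, a Rac exchange factor, at -0.46 (SE 0.11, adjusted p = 0.0146). The count of those that fell was 2 without SG male 2 or SG male 3. For Prex1 the log2 fold change was -0.74 in females (limma adjusted p = 0.0201) and -0.19 in males (0.407). Of 8 other TNF receptors tested, 1 rose and 0 fell (median 0.09). Tnfrsf1b, TNF receptor 2, which lacks a death domain and is found on immune cells, rose by 0.78 (SE 0.14, adjusted p = 0.00336), with 9.21 to 17.2 CPM (median 14.0) in YSGr and 6.63 to 9.44 CPM (median 7.92) in SG. The Tnfrsf1b log2 fold change was 0.45 in females (limma adjusted p = 0.288) and 1.11 in males (0.0089). None of 10 genes for shedding and cleavage of p75 and sortilin passed in limma, where 1 had an unadjusted p under 0.05 (4044 of 14147 over all genes). The gene with that unadjusted p had a log2 fold change of -0.28 (SE 0.09, limma adjusted p = 0.0667). The largest difference among the 10 was that of another gene, Aph1c, a gamma-secretase subunit, at 0.45 (adjusted p = 0.214). Without SG male 1 or SG male 2, 1 of the 10 fell. None of 11 retromer and sortilin sorting genes passed either, with 0 at an unadjusted p under 0.05 and Gga3, a Golgi adaptor, at 0.26 (adjusted p = 0.197), which passed with library weights (adjusted p = 0.0287).

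Downstream of the Trk receptors, 2 of 34 adaptors and effectors rose and 2 fell (median 0.04). Kidins220, a scaffold that binds Trk receptors and p75, rose by 0.58 (adjusted p = 0.046), with 152 to 249 CPM (median 211) in YSGr and 80.3 to 156 CPM (median 151) in SG, while the adaptor genes Shc1 and Sh2b2 fell by 0.46 (adjusted p = 0.0298) and by 0.37 (adjusted p = 0.0351). In females the log2 fold change was 0.41 for Kidins220 (limma adjusted p = 0.501), -0.72 for Shc1 (0.0424) and -0.20 for Sh2b2 (0.624). In males it was 0.75 for Kidins220 (limma adjusted p = 0.0688), -0.19 for Shc1 (0.468) and -0.54 for Sh2b2 (0.0423). The Kidins220 call ended under 11 of 19 alternatives, among them without YSGr male 8 (adjusted p = 0.0951), that of Shc1 under 6 (up to 0.0799, without SG female 6) and that of Sh2b2 under 7 (up to 0.0922, without SG female 5). The count that fell was 7 without SG male 2, 1 without YSGr male 8 or YSGr female 11, and 0 without SG male 3, any 1 of the SG females or YSGr female 10. None of 13 genes of Trk turnover and trafficking passed in limma, where 1 had an unadjusted p under 0.05 (4044 of 14147 over all genes). It was Nedd4l, a ubiquitin ligase, at 0.35 (adjusted p = 0.0514). Nedd4l passed with library weights (adjusted p = 0.00278) and when YSGr male 7 (0.0301) or YSGr female 12 (0.035) was left out, and its adjusted p was at most 0.123 over 19 alternatives.

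Among genes that act on proneurotrophins, 5 of 13 rose and 0 fell, with a median of 0.57. Mmp3, a secreted metalloprotease, rose by 3.42 (SE 0.43, adjusted p = 0.000427), with 0.999 to 10.3 CPM (median 4.19) in YSGr and 0 to 0.328 CPM (median 0.107) in SG. Mmp9, which can cleave proneurotrophins and is on the neutrophil marker list too, rose by 2.64 (SE 0.38, adjusted p = 0.00102), with 1.78 to 6.12 CPM (median 4.91) in YSGr and 0 to 0.766 CPM (median 0.723) in SG. Serpini1, which encodes neuroserpin, an inhibitor of plasminogen activators, rose by 0.71 (adjusted p = 0.015), and Cpe, carboxypeptidase E, which takes part in sorting proBDNF to secretory granules, rose by 0.58 (adjusted p = 0.00674). The genes past the threshold thus included both proteases and a protease inhibitor. Without SG male 2 or YSGr female 11, 1 gene of the list fell. Neutrophil and macrophage markers were higher in YSGr too: 5 of 5 neutrophil markers tested, Mmp9 itself among them, and 6 of 8 macrophage and monocyte markers rose. The summed macrophage level was 454 to 720 CPM in YSGr females and 627 to 933 CPM in YSGr males, against 177 to 194 CPM in SG females and 186 to 230 CPM in SG males. The part of neutrophils and macrophages in the result was not tested.

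Of 14 transcripts known to rise with TrkB signalling, and with other neuronal and growth factor signals as well, 2 rose and 0 fell (median 0.38). Arc rose by 1.17 (SE 0.29, adjusted p = 0.0214), with 2.66 to 18.6 CPM (median 5.87) in YSGr and 1.55 to 3.60 CPM (median 2.63) in SG, and Fos by 0.97 (SE 0.24, adjusted p = 0.0197), with 4.22 to 15.1 CPM (median 10.5) in YSGr and 3.22 to 5.35 CPM (median 4.70) in SG. The highest library for both was YSGr male 8. In females the log2 fold change was 0.43 for Arc (limma adjusted p = 0.743) and 0.51 for Fos (0.566). In males it was 1.92 for Arc (limma adjusted p = 0.0207) and 1.43 for Fos (0.0273). The Arc call ended without SG female 4 (adjusted p = 0.0519), SG female 6 (0.062) or YSGr female 10 (0.0504), and the Fos call without SG female 6 (0.0567) or without SG male 2 and YSGr male 8 together (0.0629). Without YSGr female 12 the count that rose was 4.

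**Figure D4:**
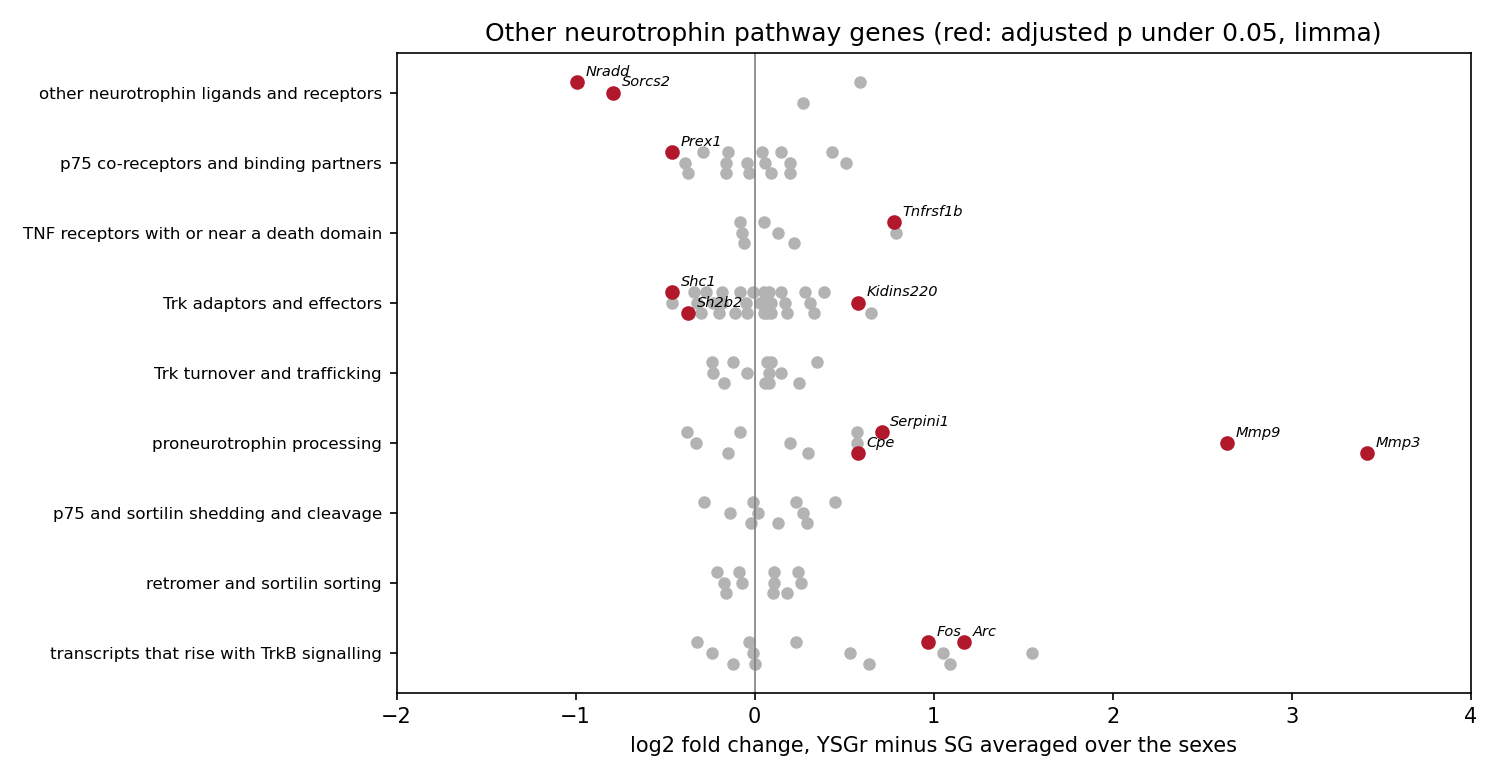
Log2 fold change of each other pathway gene tested, YSGr minus SG averaged over the sexes, with 1 row per list; red points passed an adjusted p of 0.05 and grey points did not; a few tested genes are not drawn. Nradd and Sorcs2 lie at -0.99 and -0.79 among the receptors, and Mmp3 and Mmp9 at 3.42 and 2.64 among the genes that act on proneurotrophins.

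Cell type markers were examined beside Ngfr because p75 is known from granule neuron progenitors, pericytes and fibroblasts, and Schwann cells. These lists too were chosen with earlier results known, so their counts are a description. Of 10 granule neuron progenitor markers, 5 fell and 0 rose in YSGr (median -0.50), while their summed level was 4650 to 5020 CPM in YSGr females and 3020 to 4240 CPM in YSGr males, against 4460 to 4730 CPM in SG females and 4260 to 4560 CPM in SG males. The sum was thus higher in YSGr females than in YSGr males without overlap. Abundant genes weigh most in such a sum. Zic1 had the highest mean of the list, 1730 CPM in YSGr and 1510 CPM in SG, and was not among the 5 that fell. Of 10 markers of differentiating granule neurons, 4 rose and 0 fell (median 0.66), with a sum of 2670 to 3840 CPM in YSGr females and 2750 to 3590 CPM in YSGr males, against 2070 to 2260 CPM in SG females and 1990 to 2630 CPM in SG males. Of 10 markers of pericytes, fibroblasts and meninges, 3 fell (Igf2, Col3a1 and Pdgfrb) and 1 rose (Dcn), with a median of -0.54 and a sum of 166 to 258 CPM in YSGr females and 212 to 419 CPM in YSGr males, against 396 to 562 CPM in SG females and 384 to 441 CPM in SG males. Of 6 Schwann and neural crest markers tested, 1 rose and 0 fell, with a sum of 73.7 to 84.9 CPM in YSGr females and 97.8 to 147 CPM in YSGr males, against 82.5 to 94.7 CPM in SG females and 76.1 to 89.1 CPM in SG males. The 147 CPM was in YSGr male 8, the library with the most oligodendrocyte lineage markers, and Sox10 is on both lists. Pmp2, a myelin gene of Schwann cells, had 0 reads in all 12 libraries. The part of progenitor, pericyte and fibroblast content in the Ngfr values was not tested.

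By Pearson's r of log2 CPM over the 12 libraries, the genes most like Ngfr among 12849 compared were Slc7a5 (0.982), Tcf3 (0.981), Tle1 (0.977), Mycl (0.972) and Inka2 (0.971). Slc7a5 encodes an amino acid transporter, Tcf3 a basic helix-loop-helix factor, Tle1 a corepressor and Mycl a MYC family factor. Their YSGr over SG log2 fold changes, at -0.64 to -0.45, were smaller than that of Ngfr. By deviations from the 4 group means, which leave the group differences out, the most like were Krr1 (0.978), Arpp19 (0.973), Shmt1 (0.967), Zcchc8 (0.962) and Txnrd1 (0.959). For Ntrk2 they were Nfasc (0.991), Iqsec1 (0.983) and Nacc2 (0.978), for Sort1 Prepl (0.987), Ids (0.983) and Castor2 (0.970), and for Ntrk3 Slc36a4 (0.927), Gria3 (0.924) and Tgfa (0.913). For Sorcs1 they were Slc3a1 (0.932), Thrb (0.923) and Efcab14 (0.916), for Bdnf Slc2a1 (0.922), Smim3 (0.885) and Dio2 (0.884), and for Ntf3 Baiap2 (0.898), Trmt9b (0.897) and Rps6ka1 (0.875). These are the highest of many correlations over 12 libraries and describe these libraries alone.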

How the data were processed

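The authors deposited 1 table of log2 CPM with 15672 genes in 12 libraries, and no counts were used here. Per the submitters' processing notes, Trimmomatic 0.33, RSEM 1.2.12, Bowtie2, Picard 1.95, edgeR 3.30.3 and the build mm10 were used. Annotation, strand setting and low-count filter were not given in the sources used here. CPM were obtained from the deposited log2 values by removing the prior, taken from the lowest value (-2.24). Estimated reads followed from the step of 1 read (0.100 to 0.111 CPM) and were whole within 0.02 for 92.0 to 93.0% of genes.

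Groups came from the labels' genotype and sex, and nothing pairs libraries. Genes above 0 log2 CPM in at least 3 libraries (14147, all 7 among them) were fitted with limma 3.58.1 in R 4.3.3 on the log2 CPM as deposited, with 4 group coefficients, a mean-variance trend and two-sided tests with Benjamini-Hochberg adjustment at 0.05. Fold changes are on a log2 scale that includes the prior and understates the change of low genes. The fit was tested on simulated data. The 7 genes and all lists were chosen with earlier results of these data known. Named pathway genes were up to 4 per list with the largest change among those past the threshold, otherwise the 1 with the largest change. Some genes of the lists enter the counts but are not reported by name here. Alternatives were another pseudocount, filter, centring, trend and weighting, the groups compared alone, and libraries left out.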

Additional observations from a re-analysis of the deposited data

Results flagged for a closer look

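In the groups of 6 libraries by genotype, 2 of 14 groups examined for the 7 genes held a library far from the others, where chance gives about 1 in 20 groups. Ntrk3 was 7.29 log2 CPM in SG male 2, and its gap to the next SG library was 0.658 of the SG range. Sort1 was 6.31 log2 CPM in SG male 2, with a gap of 0.750 of the SG range. Both gaps are above Dixon's 95% critical value for 6 samples.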

How the results depend on the processing

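No paired analysis was possible because the library numbers run from 1 to 12 without repeats and nothing pairs libraries. Of the fold changes of the 7 genes under the alternatives, 917 of 952 did not change sign. None of the 35 that changed it was of Ngfr: 22 were in a sex contrast or the difference of effects, and 13 in YSGr against SG, where values of Ntrk2, Ntrk3, Bdnf and Sorcs1 lay near 0 or spread widely. In the sex contrasts and the difference of effects, 12 fold changes came past the threshold. Such changes were not counted in YSGr against SG, where no test is read for the 7 genes. The causes were not tested. Ngfr kept its direction throughout. With library weights its female minus male log2 fold change was 0.63 in SG (adjusted p = 0.00843), 0.78 in YSGr (0.0022) and 0.71 averaged (0.000416). With 1 library left out it was 0.67 to 1.07 in YSGr and 0.64 to 0.84 averaged.

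Changes of sign in the female minus male difference in SG were -0.19 for Ntrk2, -0.05 for Sort1 and -0.47 for Sorcs1 with library weights, and -0.18, -0.05 and -0.45 without SG male 2 and YSGr male 8. Leaving out 1 library gave -0.18 to 0.18 for Ntrk2, -0.05 to 0.34 for Sort1, -0.45 to 0.34 for Sorcs1 and -0.53 to 0.07 for Ntf3. It gave -0.89 to 0.12 for Ntf3 in YSGr, -0.12 to 0.04 for Ntrk3 and -0.21 to 0.02 for Sort1 averaged, and -0.62 to 0.39 for the Ntf3 difference of effects. That of Sorcs1 was 0.01 without SG male 2 and YSGr male 8.

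Counts of genes past the threshold moved most. With library weights they were 4986 averaged, 4483 in females, 2326 in males, 675 for the difference of effects, and 28 in SG, 1819 in YSGr and 1542 averaged for females against males, against 1617, 426, 1111, 1, 5, 11 and 9. Without SG male 2 and YSGr male 8 they were 1268 in females, 245 in males and 19 between the sexes in YSGr, and with the groups compared alone 761, 318 and 7. With 1 library left out they ranged over 900 to 2088 averaged, 94 to 785 in females, 286 to 1662 in males, 1 to 119 for the difference of effects, 9 to 1026 between the sexes in YSGr and 7 to 307 averaged over the genotypes, the highest of the last 3 without YSGr female 11.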
